A study of Mus musculus with 12 samples.

Results

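Apolipoproteins are the protein components of lipoprotein particles, and 7 of their genes were followed here over kidneys of mice with and without hypoxic preconditioning (HPC) and renal ischemia–reperfusion injury (RIRI). The genes were Apoa4, Apoc3, Apoe, Apom, Apob, Apod and Apoh, 7 of the 25553 genes with a value in the deposited expression table. They were chosen by their measured FPKM, because Apoc3, Apoa4 and Apoe were higher with preconditioning, so their preconditioning differences are given as a description and carry no p-value. The data are RNA-seq of bulk kidney tissue from wild-type (WT) mice, 3 replicate libraries per group and 12 in all; the labels do not say that replicates are separate mice, so p-values measure the spread between these libraries. The preconditioned RIRI mice spent 2, 4 and 8 h per day, over days 1 to 3, in a chamber at 8% oxygen. Both renal pedicles were then clamped for 45 min, and the kidneys were taken after 12 h of reperfusion. Normoxic RIRI mice had the same clamp and reperfusion without the hypoxia. Preconditioned sham mice had the hypoxia without RIRI, and normoxic sham mice had neither. The labels give no strain, age or sex, and they give every library the same batch. Levels are FPKM, counts of sequenced fragments scaled by gene length and by the depth of the library.

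Apolipoproteins wrap and steer the lipids that travel in plasma. ApoB is the structural protein of chylomicrons and very-low-density lipoprotein, ApoE is a ligand of the low-density lipoprotein receptor family, and ApoC-III slows lipoprotein lipase and remnant uptake. ApoA-IV is best known from intestinal chylomicrons, ApoM carries sphingosine-1-phosphate on high-density lipoprotein (HDL), ApoD is a lipocalin that binds small lipids, and ApoH is a plasma protein that binds anionic phospholipids. In the kidney, small apolipoproteins that pass the glomerular filter are taken up by the proximal tubule through megalin (Lrp2) and cubilin (Cubn), and the proximal tubule is itself a known site of Apom expression.

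In the RefSeq annotation of GRCm38.p6, the build named mm10 in the submitters' processing notes, Apoc3 spans chr9:46233050-46235636 and Apoa4 spans chr9:46240844-46243458, its start 5208 bases past the end of Apoc3. Apoe lies at chr7:19696244-19701310, Apom at chr17:35128997-35131801, Apob at chr12:7977629-8016839, Apoh at chr11:108395297-108414396 and Apod at chr16:31296192-31314808. No annotated gene overlaps any of the 7. The promoters of Apoa4, Apoe and Apom are shown because these genes had 3 different patterns over the groups: Apoa4 was highest in preconditioned RIRI, Apoe in preconditioned sham, and Apom was lower in all RIRI kidneys. Each window is the RefSeq GRCm38.p6 sequence from 250 bases before to 50 bases from an annotated transcript start, 5′ to 3′ on the gene's strand, at chr9:46240594-46240893 (plus strand), chr7:19699139-19699438 (minus strand) and chr17:35131752-35132051 (minus strand). RefSeq has 3 windows for Apoe, and the one shown is at the start of the principal transcript in GENCODE, which lies inside the gene's RefSeq span. Capitals mark matches to the letters searched.
Apoa4: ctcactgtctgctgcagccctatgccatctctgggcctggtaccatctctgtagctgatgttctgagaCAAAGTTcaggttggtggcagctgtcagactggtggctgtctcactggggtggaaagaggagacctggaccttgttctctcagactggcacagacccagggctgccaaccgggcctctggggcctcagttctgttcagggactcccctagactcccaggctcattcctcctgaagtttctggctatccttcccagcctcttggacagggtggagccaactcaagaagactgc
Apoe: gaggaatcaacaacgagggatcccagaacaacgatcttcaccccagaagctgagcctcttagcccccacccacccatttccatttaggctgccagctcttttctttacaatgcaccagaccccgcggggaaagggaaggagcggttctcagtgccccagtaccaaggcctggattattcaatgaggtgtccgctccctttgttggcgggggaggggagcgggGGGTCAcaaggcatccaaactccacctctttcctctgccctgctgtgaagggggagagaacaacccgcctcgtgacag
Apom: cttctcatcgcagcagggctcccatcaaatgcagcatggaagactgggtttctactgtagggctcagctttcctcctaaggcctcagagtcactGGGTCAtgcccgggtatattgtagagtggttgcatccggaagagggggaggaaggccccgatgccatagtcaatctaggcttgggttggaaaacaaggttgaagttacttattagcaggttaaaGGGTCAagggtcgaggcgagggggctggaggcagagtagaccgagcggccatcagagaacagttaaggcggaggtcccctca
The search covered both strands for AGGTCA, a nuclear receptor core, for CAAAGTC, an HNF4 core, and for GTTAAT, part of the HNF1 site. It also covered ACGTG, the core of hypoxia response elements, the E-box motif CACGTG, whose letters include ACGTG, and the TATA box motif TATAAA. The variant letters CAAAGTT and also the letters GGGTCA were added after the sequences had been seen. Counting the annotated start base as 0, Apoa4 held CAAAGTT at -182 to -176, Apoe held GGGTCA at -28 to -23, and Apom held GGGTCA at -156 to -151 and at -32 to -27. Apoc3 has no window here and was not searched. Among the other 6 genes, Apob held TATAAA and Apoh held AGGTCA once each, and none of the 6 windows held the HNF4 core, the HNF1 motif, the hypoxia response core or the E-box. Of 32851 promoter windows of the same length, 3.83% held CAAAGTT, 13.7% GGGTCA, 16.3% AGGTCA, 4.44% CAAAGTC, 7.10% GTTAAT, 19.6% ACGTG, 7.15% CACGTG and 13.6% TATAAA. These matches are a description of letters and not of binding.

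The libraries were even in size: the FPKM values were whole multiples of 1 read, which gave 33096854 to 35707662 reads per library. Kidney was checked by proximal tubule markers, all 12 of which passed the filter given below, with a summed level of 4130 to 4335 FPKM in preconditioned RIRI, 3940 to 4472 in normoxic RIRI, 8774 to 9488 in preconditioned sham and 10234 to 10981 in normoxic sham. Of the 7 members, 6 were above 1 FPKM in all 12 libraries. Apod stayed under 1 FPKM in all 12 libraries, on 3 to 41 reads, and did not pass the filter of 1 FPKM in 3 or more libraries that 12357 genes passed.

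Apoc3, the lipase inhibitor, was at 70.1, 27.4 and 44.0 FPKM in the 3 preconditioned RIRI libraries, against 4.24, 6.13 and 4.71 FPKM in the 3 normoxic RIRI libraries. Its sham levels were 27.1, 34.0 and 24.2 FPKM in preconditioned kidneys, against 12.1, 9.04 and 10.5 FPKM in normoxic kidneys. Every preconditioned library thus stood above every normoxic library, with or without injury. The mean was 47.2 ± 21.5 FPKM in preconditioned RIRI and 5.03 ± 0.985 FPKM in normoxic RIRI (SD, n = 3 each), a 9.38-fold ratio of means and a difference of 2.91 ± 0.26 on the log2(FPKM + 1) scale (SE). In sham kidneys the ratio of means was 2.70 and the log2 difference 1.35 ± 0.26. In bulk tissue, fewer cells of a type and less RNA per cell cannot be told apart, for this and for all genes below.

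Apoa4, the neighbour of Apoc3 on chromosome 9, had the same highest library. Its levels were 61.6, 17.0 and 37.6 FPKM in preconditioned RIRI, against 4.12, 9.19 and 4.39 FPKM in normoxic RIRI. In sham kidneys they were 13.9, 15.7 and 12.5 FPKM with preconditioning, against 9.50, 7.62 and 6.39 FPKM without. The preconditioned and normoxic libraries did not overlap in either setting. The log2 difference was 2.43 ± 0.38 between the RIRI groups (ratio of means 6.57) and 0.77 ± 0.38 between the sham groups (ratio of means 1.79). Leaving out preconditioned RIRI replicate 2, the lowest of its group, moved the RIRI difference of Apoa4 to 2.91 and that of Apoc3 to 3.24, and leaving out replicate 1, the highest, moved that of Apoa4 to 2.01 and that of Apoc3 to 2.58.

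The pair did not keep a fixed ratio. Apoc3 divided by Apoa4 was 1.14, 1.61 and 1.17 in preconditioned RIRI and 1.03, 0.667 and 1.07 in normoxic RIRI. In sham kidneys it was 1.95, 2.17 and 1.94 with preconditioning and 1.28, 1.19 and 1.64 without. The ratio was highest in the 3 preconditioned sham libraries, which overlapped no other group.

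Apoe, the receptor ligand, was the most abundant of the 3 genes the choice rested on. It stood at 89.4, 63.0 and 92.5 FPKM in preconditioned RIRI, against 45.4, 54.8 and 51.0 FPKM in normoxic RIRI. Its sham levels were 97.4, 104 and 149 FPKM with preconditioning, against 65.6, 61.6 and 56.0 FPKM without. Its order thus differed from that of Apoa4 and Apoc3: preconditioned sham was highest, preconditioned RIRI and normoxic sham overlapped, and normoxic RIRI was lowest. The log2 difference between preconditioned and normoxic kidneys was 0.67 ± 0.17 in RIRI (ratio of means 1.62) and 0.90 ± 0.17 in sham (ratio of means 1.92).

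**Figure D1:**
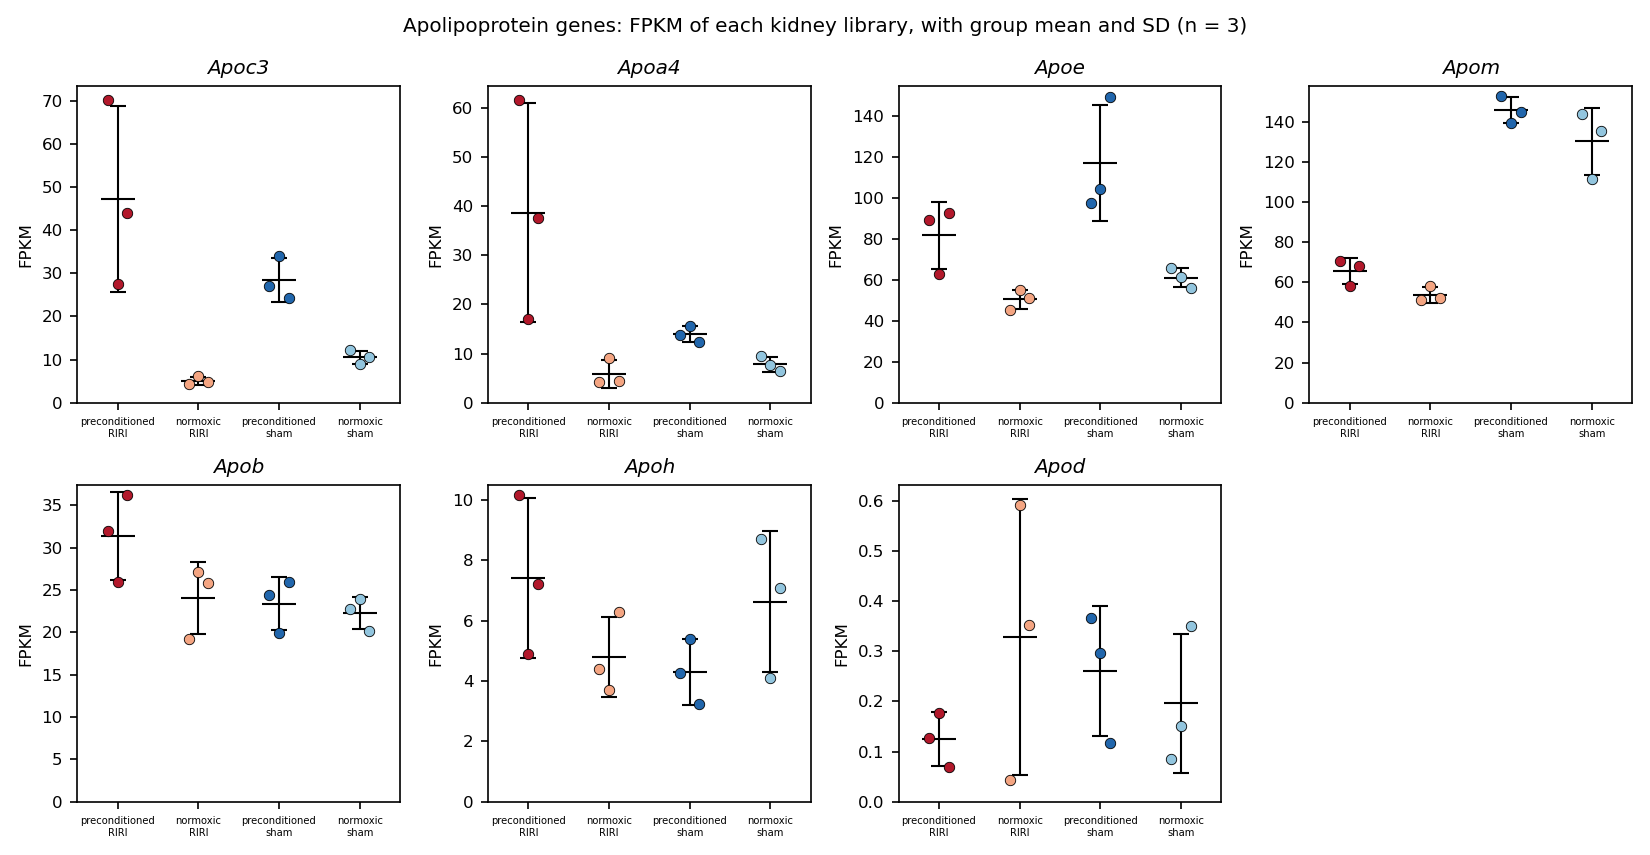
FPKM of each of the 7 apolipoprotein genes in every library (points) with the group mean and SD (bars), for preconditioned RIRI, normoxic RIRI, preconditioned sham and normoxic sham kidneys (n = 3 each). Apoc3 and Apoa4 peak in preconditioned RIRI, Apoe in preconditioned sham, Apom is lower in both RIRI groups, and Apod stays under 1 FPKM.

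Apom, the carrier of sphingosine-1-phosphate, was at 70.6, 58.3 and 67.9 FPKM in preconditioned RIRI and 50.9, 58.3 and 52.2 FPKM in normoxic RIRI. Sham levels were 153, 139 and 145 FPKM with preconditioning and 144, 111 and 135 FPKM without. The preconditioned and normoxic libraries overlapped in sham. In RIRI they only touched, the lowest preconditioned and the highest normoxic library both being at 58.3 FPKM, and this was counted as overlap. The log2 differences were 0.28 ± 0.10 in RIRI and 0.17 ± 0.10 in sham.

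Apob, the structural protein, was at 31.9, 26.0 and 36.2 FPKM in preconditioned RIRI, 19.2, 27.1 and 25.8 in normoxic RIRI, 24.4, 19.9 and 25.9 in preconditioned sham and 22.8, 23.9 and 20.2 in normoxic sham. Neighbouring groups in its order all overlapped, and the log2 difference with preconditioning was 0.37 ± 0.15 in RIRI and 0.06 ± 0.15 in sham. Apoh, the phospholipid-binding plasma protein, ranged from 4.88 to 10.1 FPKM in preconditioned RIRI, 3.70 to 6.28 in normoxic RIRI, 3.23 to 5.41 in preconditioned sham and 4.09 to 8.70 in normoxic sham. Its groups overlapped, with log2 differences of 0.51 ± 0.28 in RIRI and -0.50 ± 0.28 in sham, the one value below 0 in sham among the 6 members that passed the filter. Apod ranged from 0.0699 to 0.177 FPKM in preconditioned RIRI, 0.0428 to 0.591 in normoxic RIRI, 0.117 to 0.367 in preconditioned sham and 0.0857 to 0.351 in normoxic sham, with no order that could be read at this depth.

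Between the RIRI groups, 3 of the 6 members that passed the filter had preconditioned libraries all above the normoxic ones. Apom was counted as overlapping though its groups only touched, and Apod overlapped. Over all tested genes, 27.8% were higher without overlap in this comparison. The median log2 difference was 0.59 for the 6 and 0.06 for all tested genes. Between the sham groups the same 3 genes, Apoc3, Apoa4 and Apoe, stood above without overlap, where 23.0% of tested genes did, and the medians were 0.47 for the 6 and 0.06 for all genes. Since these differences chose the genes, the counts are given for scale only. Preconditioned RIRI replicate 2 was the lowest of its group for 6 of the 6 members and for 4379 of the 12357 tested genes, and replicate 1 was the highest for 4 of the 6 and for 3182 of the 12357.

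Injury was tested on the members through the mean injury effect. This is the mean log2 level of the RIRI groups less that of the sham groups, with each group weighted equally. It is independent of the preconditioning differences that chose the members only where the groups have equal spread. Apom and Apoe fell with injury, and none of the other 4 passed the test. Apom averaged 59.7 FPKM in the 6 RIRI libraries and 138 FPKM in the 6 sham libraries, with no overlap, a mean injury effect of -1.20 ± 0.07 (limma, adjusted p = 3.88e-08); 15.7% of tested genes were lower without overlap. Apoe averaged 66.0 FPKM in RIRI and 89.0 FPKM in sham kidneys, with overlap, and its effect was -0.39 ± 0.12 (limma, adjusted p = 0.0111). The SD of Apoe was 28.2 FPKM in preconditioned sham and 4.78 FPKM in normoxic sham, so its test is not fully free of the choice. Without preconditioned sham replicate 3 the effect of Apoe was -0.30 (limma, adjusted p = 0.0219). With a call at an adjusted p under 0.05, 29.9% of the 12357 tested genes fell and 44.5% rose, so 2 lower calls among 6 members are near that share. Of all calls in this comparison 59.8% were higher, against 49.8% after median-ratio rescaling. The median effect was -0.01 for the 6 members and 0.10 for all tested genes.

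Apob had a mean injury effect of 0.25 ± 0.11 (limma, adjusted p = 0.0511), which passed the threshold without normoxic RIRI replicate 1 (0.32, limma adjusted p = 0.00983), preconditioned RIRI replicate 2 (0.31, 0.0170) or preconditioned sham replicate 3 (0.29, 0.0400). Apoa4 had 0.41 ± 0.27 (limma, adjusted p = 0.182), and without preconditioned RIRI replicate 2 it passed at 0.65 (limma, adjusted p = 0.0106). The SD of Apoa4 was 22.3 FPKM in preconditioned RIRI and 1.57 to 2.85 FPKM in the other groups. Its test is thus not fully free of the choice, with or without that library. The same limit holds for Apoc3, with an SD of 21.5 FPKM in preconditioned RIRI and 0.985 FPKM in normoxic RIRI. Apoc3 had -0.16 ± 0.19 (limma, adjusted p = 0.456) and Apoh 0.13 ± 0.19 (limma, adjusted p = 0.546). Beside the lower Apom, all 12 proximal tubule markers fell in the mean injury effect (limma, adjusted p under 0.05), with a median of -1.35, and their part in its level was not tested.

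Taken separately in preconditioned and in normoxic mice, the injury differences share libraries with the differences that chose the genes and are described without a test. Apoc3 in RIRI against sham was 0.62 ± 0.26 higher on the log2 scale in preconditioned mice, with overlap, and -0.94 ± 0.26 in normoxic mice, without overlap. Apoa4 was 1.24 ± 0.38 higher in preconditioned mice, without overlap, and -0.42 ± 0.38 in normoxic mice, with overlap. Without preconditioned RIRI replicate 1 the values in preconditioned mice were 0.29 for Apoc3 and 0.82 for Apoa4, and without replicate 2 they were 0.96 for Apoc3 and 1.72 for Apoa4. Apoe was lower in both, at -0.51 ± 0.17 in preconditioned and -0.27 ± 0.17 in normoxic mice, each without overlap. Apom was lower in both, at -1.14 ± 0.10 in preconditioned and -1.25 ± 0.10 in normoxic mice. Apob was 0.40 ± 0.15 higher in preconditioned mice, without overlap, and 0.09 ± 0.15 in normoxic mice. The injury effect in preconditioned minus that in normoxic mice was 1.57 ± 0.37 for Apoc3, 1.65 ± 0.53 for Apoa4, 1.01 ± 0.39 for Apoh, 0.31 ± 0.21 for Apob, 0.11 ± 0.15 for Apom and -0.24 ± 0.24 for Apoe. In preconditioned mice 4 of 6 members did not overlap between RIRI and sham, where 63.3% of tested genes did not, and in normoxic mice 3 of 6 did not, where the share was 74.3%.

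**Figure D2:**
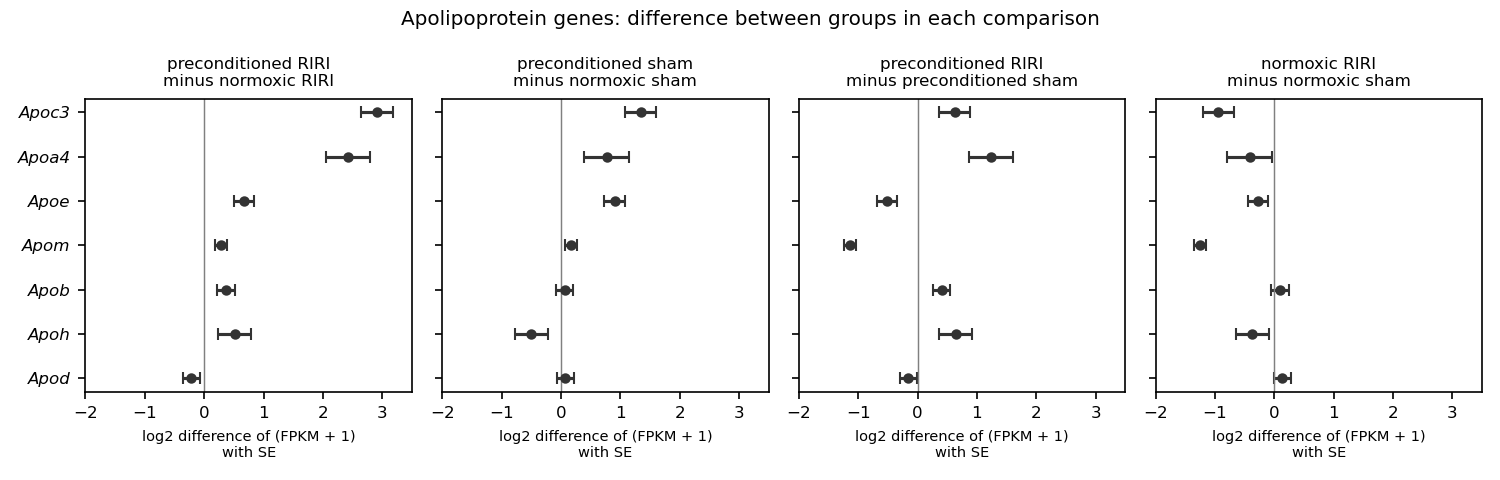
Log2 differences of (FPKM + 1) with SE (bars) for the 7 genes: preconditioned against normoxic kidneys in RIRI and in sham, and RIRI against sham kidneys in preconditioned and in normoxic mice. Apoc3 (2.91) and Apoa4 (2.43) stand farthest above 0 between the RIRI groups, and Apom is below 0 in both injury comparisons (-1.14 and -1.25); the values of Apod come from a fit without the filter on low values.

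The genes beside Apoc3 and Apoa4 were read for the same pattern. Apoa1, the main protein of HDL, lies 2581 bases from Apoc3 and was low, at 2.21, 0.687 and 1.35 FPKM in preconditioned RIRI, against 0.269, 0.514 and 0.415 FPKM in normoxic RIRI. Its sham levels were 0.949, 0.891 and 1.25 FPKM with preconditioning and 0.660, 0.864 and 0.595 FPKM without. Apoa1 rose in preconditioned RIRI by 0.74 ± 0.19 (limma, adjusted p = 0.00824), a call that was lost under quantile normalization (limma, adjusted p = 0.0666), and the sham difference of 0.25 ± 0.19 did not pass (limma, adjusted p = 0.594). The other tested genes within 50 kb, Sik3, Zpr1 and Bud13, had RIRI differences of 0.00 ± 0.08, -0.25 ± 0.11 and -0.03 ± 0.09. None of these passed, Zpr1 being the nearest (limma, adjusted p = 0.0797). Apoa5 was listed at 0 in all 6 RIRI libraries. Thus Apoc3, Apoa4 and Apoa1 stood higher in preconditioned RIRI, and no call was made for the 3 flanking genes that are no apolipoproteins.

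Beside Apoe, Apoc1 lies 3585 bases away and encodes a small exchangeable apolipoprotein. It was at 0.891, 0.817 and 0.419 FPKM in preconditioned RIRI, 0.213, 0.378 and 0.634 in normoxic RIRI, 0.740, 2.54 and 4.03 in preconditioned sham and 0.963, 1.08 and 1.26 in normoxic sham. Like Apoe it fell with injury, with a mean injury effect of -0.74 ± 0.21 (limma, adjusted p = 0.00673), and its preconditioning differences of 0.28 ± 0.29 in RIRI and 0.58 ± 0.29 in sham did not pass (limma, adjusted p = 0.472 and 0.408). Tomm40, a mitochondrial import gene 3 bases from Apoe, moved the other way with injury (0.67 ± 0.07, limma, adjusted p = 2.82e-06). Nectin2, an adhesion molecule gene on the same stretch, fell in preconditioned RIRI against normoxic RIRI by 0.74 on the log2 scale (limma, adjusted p = 7.36e-05). Apoc2 and Apoc4 averaged under 0.1 FPKM in every group.

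**Figure D3:**
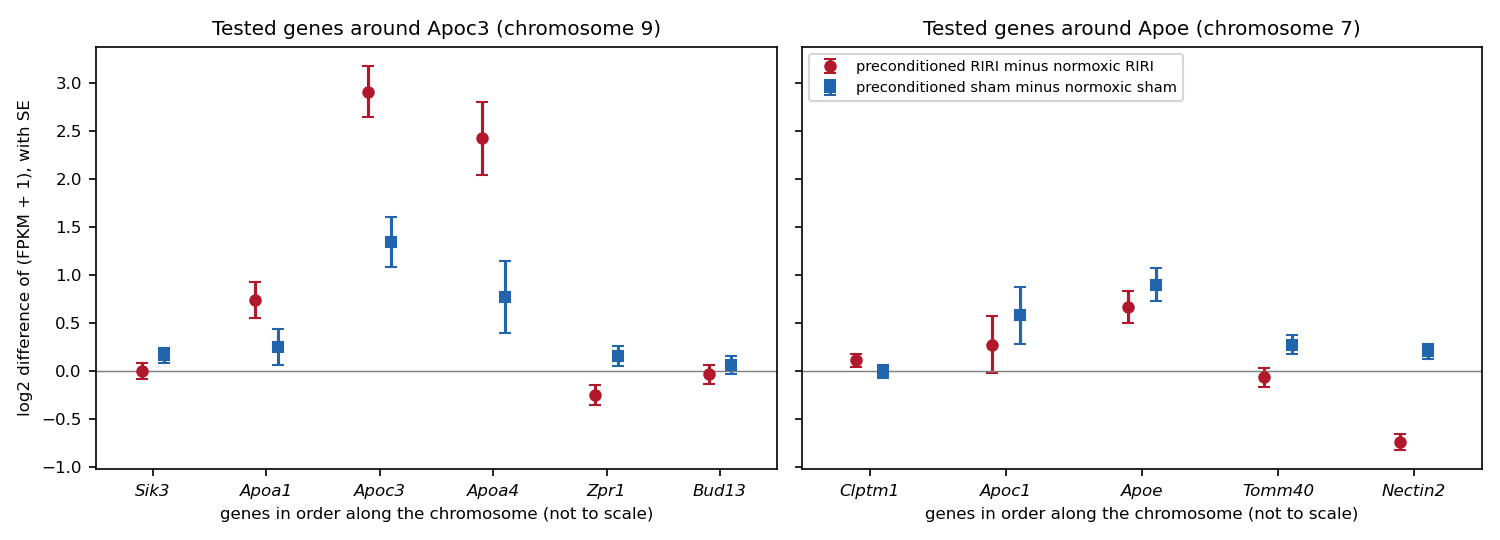
Log2 difference of (FPKM + 1) with SE between preconditioned and normoxic kidneys, in RIRI (circles) and in sham (squares), for the tested genes within 50 kb of Apoc3 and of Apoe, in chromosome order. Apoc3, Apoa4 and Apoa1 stand above 0 in RIRI, where the flanking genes Sik3 and Bud13 are near 0 and Zpr1 is at -0.25. On chromosome 7 Apoe stands above 0 in both settings while Nectin2 is below 0 in RIRI.

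Of 13 further apolipoprotein genes, 6 passed the filter. In preconditioned RIRI against normoxic RIRI, 2 rose (Apoa1 and Apoa2) and 2 fell (Clu and Saa3), where 42.1% of tested genes were called. Apoa2, a second HDL protein, was at 5.03, 4.59 and 4.96 FPKM in preconditioned RIRI and 3.66, 3.74 and 3.38 FPKM in normoxic RIRI, a rise of 0.35 ± 0.09 (limma, adjusted p = 0.00914) that was lost with voom on the recovered reads (limma, adjusted p = 0.0564). Saa3, an acute-phase apolipoprotein, was at 1.86, 0.0533 and 0.164 FPKM in preconditioned RIRI and 5.73, 12.7 and 5.24 FPKM in normoxic RIRI, a difference of -2.45 ± 0.35 (limma, adjusted p = 0.000327). Clu, which encodes clusterin (apolipoprotein J), was at 656, 618 and 717 FPKM in preconditioned RIRI and 832, 748 and 1074 FPKM in normoxic RIRI, a difference of -0.40 ± 0.11 (limma, adjusted p = 0.0157); the call was lost without preconditioned RIRI replicate 2 (-0.35, limma, adjusted p = 0.0598) and in a fit of the RIRI groups alone (limma, adjusted p = 0.0776).

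In normoxic RIRI against normoxic sham, Clu (2.89 ± 0.11, limma, adjusted p = 3.06e-09), Saa3 (2.91 ± 0.35, limma, adjusted p = 1.36e-05) and Saa1 rose and Apoa2 fell (-0.62 ± 0.09, limma, adjusted p = 6.62e-05), where 71.7% of tested genes were called. Saa1 and Saa2 have near-identical sequences, so the split of reads between them is uncertain. Between the sham groups none of the 6 passed, with 0 at an unadjusted p under 0.05 in limma and 0 calls with voom, against 0.421% of all tested genes. Of the 12 measured genes of the apolipoprotein L family, Apol9b alone passed the filter, at a low 0.178 to 1.96 FPKM. It fell in the mean injury effect (-0.48, limma, adjusted p = 0.0275), though RIRI and sham libraries overlapped. The injury effect was -0.69 in preconditioned mice (limma, adjusted p = 0.0353) and did not pass in normoxic mice (-0.26, limma, adjusted p = 0.358). Apol9b did not pass in preconditioned against normoxic RIRI (0.22, limma, adjusted p = 0.510), and it shares near-identical sequence with Apol9a.

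Transcription factors known to act on apolipoprotein genes, mostly from work on liver and intestine, were read next. This list, like the other gene lists here, was chosen with earlier results of these data known, so its counts are a description. Of 20 tested, 10 rose and 1 fell in preconditioned RIRI against normoxic RIRI (24.7% of tested genes rose and 17.4% fell), with a median of 0.26 against 0.06 for all genes. With median-ratio rescaling 8 rose, and quantile normalization left 9. Hnf4a, the nuclear receptor that binds the Apoc3 and Apoa4 regulatory region in liver and intestine, was at 124, 160 and 142 FPKM in preconditioned RIRI, against 57.9, 48.9 and 36.8 FPKM in normoxic RIRI. It rose by 1.57 ± 0.15 (limma, adjusted p = 3.14e-05). Within preconditioned RIRI, replicate 2 had the highest Hnf4a and the lowest Apoc3. The part of Hnf4a in the levels of Apoc3 and Apoa4 was not tested. Mlxipl, a glucose-responsive factor, rose by 1.16 ± 0.15 (limma, adjusted p = 0.000165), and Ppargc1a, a coactivator of mitochondrial genes, rose by 0.75 ± 0.10 (limma, adjusted p = 0.000269).

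Injury lowered more of this list than it raised, both with and without preconditioning. In preconditioned RIRI against preconditioned sham, 7 of 20 fell and 1 rose (19.4% and 33.0% of tested genes), with a median of -0.12. The comparison in normoxic mice shares the normoxic RIRI libraries with the comparison of the RIRI groups above. In normoxic RIRI against normoxic sham, 13 of 20 fell and 2 rose (30.1% and 41.6% of tested genes), among them Hnf4a at 47.9 ± 10.6 against 213 ± 17.2 FPKM (-2.15 ± 0.15, limma, adjusted p = 1.75e-07) and Ppargc1a (-1.23 ± 0.10, limma, adjusted p = 7.78e-07). Cebpb, an acute-phase factor, rose by 2.67 ± 0.18 (limma, adjusted p = 1.25e-07). Between the sham groups none of the 20 was called, with 3 at an unadjusted p under 0.05 in limma and 0 calls with voom. Hnf4a was at 223, 220 and 181 FPKM in preconditioned sham and 225, 194 and 222 FPKM in normoxic sham.

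Receptors that take up apolipoproteins were then described. Of 17 tested receptors and regulators, 8 rose and 4 fell in preconditioned RIRI against normoxic RIRI (over all tested genes, 24.7% and 17.4%). Cubn averaged 33.3 ± 3.57 against 17.1 ± 2.21 FPKM (0.93 ± 0.11, limma, adjusted p = 0.000109) and Lrp2 82.8 ± 10.8 against 50.7 ± 5.46 FPKM (0.69 ± 0.10, limma, adjusted p = 0.000299). In normoxic RIRI against normoxic sham 8 rose and 8 fell (over all tested genes, 41.6% and 30.1%), with Lsr, a lipolysis-stimulated receptor, higher (1.67 ± 0.08, limma, adjusted p = 1.43e-08), and Lrp2 (-1.96 ± 0.10, limma, adjusted p = 1.54e-08) and its chaperone Lrpap1 (-1.44 ± 0.09, limma, adjusted p = 9.54e-08) lower. Between the sham groups 1 fell, with 5 at an unadjusted p under 0.05. It was Cd36, a scavenger receptor named here after its value was seen, at 67.0 ± 13.4 FPKM with preconditioning and 120 ± 6.70 FPKM without (-0.85, limma, adjusted p = 0.0223), and the call was lost without the filter on low values and when any normoxic sham library was left out, the highest adjusted p being 0.105.

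Of 12 tested genes of particle assembly and secretion, 4 rose and 2 fell in preconditioned RIRI against normoxic RIRI, where 24.7% of all tested genes rose and 17.4% fell, with a median of 0.08 against 0.06 for all genes. Tm6sf2, needed to lipidate particles in liver, was at 6.25, 7.94 and 6.72 FPKM in preconditioned RIRI, against 2.49, 1.67 and 1.30 FPKM in normoxic RIRI, and it rose by 1.51 ± 0.15 (limma, adjusted p = 3.05e-05). Cideb, which aids particle lipidation, averaged 138 ± 12.3 against 76.7 ± 3.21 FPKM (0.84 ± 0.10, limma, adjusted p = 0.000126), and Dgat2, a triglyceride synthesis enzyme, rose by 0.53 ± 0.08 (limma, adjusted p = 0.000563). Mttp, the transfer protein that loads ApoB with lipid, was at 2.57, 3.87 and 4.09 FPKM in preconditioned RIRI and 2.20, 6.47 and 1.78 FPKM in normoxic RIRI and was not called (0.14, limma, adjusted p = 0.732); it is named after its value was seen. In normoxic RIRI against normoxic sham 4 rose and 5 fell (over all tested genes, 41.6% and 30.1%), with Cideb (-1.73 ± 0.10, limma, adjusted p = 4.64e-08) and the isomerase P4hb (-0.54 ± 0.06, limma, adjusted p = 5.43e-06) lower and the cargo receptor Surf4 higher (0.72 ± 0.08, limma, adjusted p = 4.35e-06). None of the 12 was called between the sham groups, with 2 at an unadjusted p under 0.05 in limma and 0 calls with voom.

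Among 7 tested genes of lipolysis, 3 rose and 2 fell in preconditioned RIRI against normoxic RIRI (over all tested genes, 24.7% and 17.4%). Angptl4, which like ApoC-III inhibits lipoprotein lipase, was at 61.6, 20.0 and 51.1 FPKM against 111, 150 and 128 FPKM and fell by 1.67 on the log2 scale (limma, adjusted p = 0.00329), the opposite direction to the Apoc3 values. Angptl8 rose by 0.77 ± 0.18 (limma, adjusted p = 0.00562) and Lmf1, a lipase maturation factor, by 0.37 ± 0.09 (limma, adjusted p = 0.00654). In normoxic RIRI against normoxic sham 3 rose and 4 fell (over all tested genes, 41.6% and 30.1%), among them Lpl, the lipase itself (-1.63 ± 0.23, limma, adjusted p = 4.57e-05), and Pltp, the phospholipid transfer protein (-1.04 ± 0.18, limma, adjusted p = 0.000277), while Angptl4 rose (2.39 ± 0.35, limma, adjusted p = 7.31e-05). None was called between the sham groups, with 3 at an unadjusted p under 0.05 in limma and 0 calls with voom.

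Genes of the sphingosine-1-phosphate axis that ApoM serves were read last among the lists. Of 11 tested genes of efflux, HDL enzymes and sphingosine-1-phosphate signalling, 6 rose and 1 fell in normoxic RIRI against normoxic sham (over all tested genes, 41.6% and 30.1%). In preconditioned against normoxic RIRI 3 rose and 4 fell (over all tested genes, 24.7% and 17.4%), and after either rescaling 1 rose and 4 fell. Sphk1, the kinase that makes the lipid, averaged 46.1 ± 21.9 FPKM in normoxic RIRI and 1.32 ± 0.179 FPKM in normoxic sham (4.25 ± 0.29, limma, adjusted p = 1.40e-07). Its mean of 8.58 ± 2.98 FPKM in preconditioned RIRI was lower than in normoxic RIRI (-2.25 ± 0.29, limma, adjusted p = 0.000181). The receptor S1pr1 rose in normoxic RIRI by 2.04 ± 0.19 (limma, adjusted p = 1.35e-06) and fell in preconditioned against normoxic RIRI by 1.02 (limma, adjusted p = 0.00142). The exporter Spns2 rose in normoxic RIRI by 2.11 ± 0.10 (limma, adjusted p = 1.08e-08), and Pon2, a paraoxonase, fell in preconditioned against normoxic RIRI by 0.42 (limma, adjusted p = 0.00329). None of the 11 was called between the sham groups, with 1 at an unadjusted p under 0.05 in limma and 0 calls with voom.

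**Figure D4:**
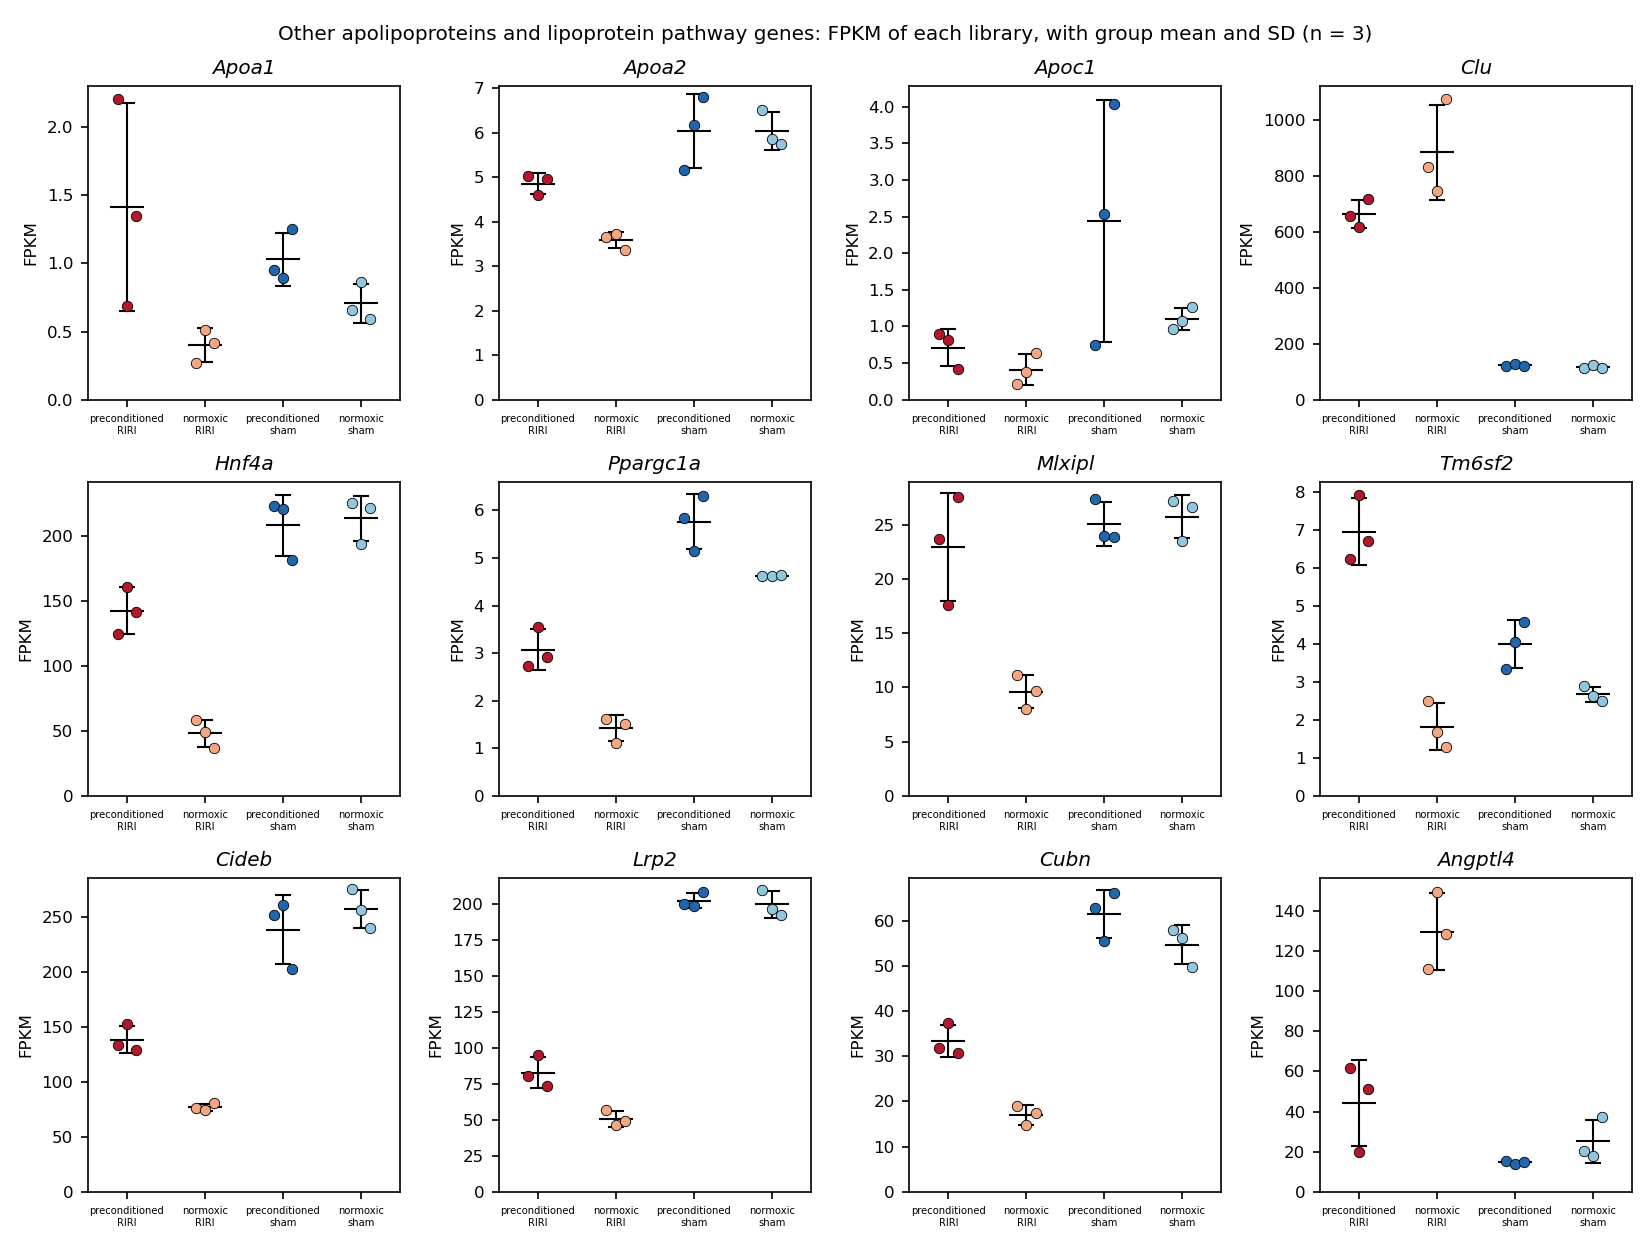
FPKM in every library (points) with the group mean and SD (bars) for 12 genes named beside the members, in preconditioned RIRI, normoxic RIRI, preconditioned sham and normoxic sham kidneys (n = 3 each). Hnf4a, Tm6sf2, Cideb, Lrp2 and Cubn are higher and Angptl4 is lower in preconditioned than in normoxic RIRI kidneys.

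Markers of other tissues that make these proteins were set beside Apoc3 and Apoa4. Of 10 hepatocyte markers, 9 were measured and 3 passed the filter; their sum ran from 51.7 to 403 FPKM in preconditioned RIRI, 64.9 to 428 in normoxic RIRI, 98.6 to 228 in preconditioned sham and 137 to 170 in normoxic sham. The sum was carried by Ttr and Fgg, while 3 of the 9, Ahsg, Cps1 and Serpina3k, stayed under 0.1 FPKM in all 12 libraries. Fgg, a fibrinogen chain, was at 340 FPKM in preconditioned RIRI replicate 1 and at 353 FPKM in normoxic RIRI replicate 3. Of 7 small intestine markers, 6 were measured and 1, Vil1, passed the filter, so their sum rests mainly on Vil1 and cannot stand for that epithelium. The sum ran from 95.8 to 120 FPKM in preconditioned RIRI, 59.6 to 82.1 in normoxic RIRI, 76.5 to 80.9 in preconditioned sham and 78.1 to 87.4 in normoxic sham. Alpi, Sis and Lct, which define that epithelium, stayed under 0.1 FPKM in all 12 libraries. Whether liver or intestine tissue had a part in the levels of Apoc3 and Apoa4 was not tested. For Apoe, which macrophages express, the sum of 10 macrophage markers was 89.7 to 97.9 FPKM in preconditioned RIRI, 85.8 to 108 in normoxic RIRI, 70.5 to 74.2 in preconditioned sham and 66.9 to 72.9 in normoxic sham. Macrophage marker sums were thus higher in RIRI than in sham kidneys, but the single markers were split. Of the 7 that passed the filter, 4 rose and 1 fell in the mean injury effect (limma, adjusted p under 0.05). Over all tested genes, 44.5% rose and 29.9% fell in that comparison. In normoxic RIRI against normoxic sham 3 of the 7 rose and 2 fell, against 41.6% and 30.1% of tested genes. The part of macrophages in Apoe was not tested.

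Other kidney cell markers also differed between the RIRI groups in which Apoc3 and Apoa4 stood furthest apart. In preconditioned RIRI against normoxic RIRI, 6 of 12 proximal tubule markers, 6 of 6 thick ascending limb markers and 4 of 6 collecting duct markers rose (limma, adjusted p under 0.05). In the same comparison 7 of 7 tested neutrophil markers and 2 of 3 adipose markers fell. Of 6 endothelial markers 1 rose and 2 fell, and 2 of 7 tested macrophage markers and 1 of 7 fibroblast and pericyte markers rose. Over all tested genes, 24.7% rose and 17.4% fell. The proximal tubule sum overlapped, at 4130 to 4335 FPKM in preconditioned RIRI and 3940 to 4472 FPKM in normoxic RIRI. The thick ascending limb sum was 1665 to 2002 FPKM in preconditioned RIRI and 1110 to 1562 FPKM in normoxic RIRI, and the neutrophil sum was 23.6 to 111 FPKM in preconditioned RIRI and 132 to 295 FPKM in normoxic RIRI. The part of these cells in the levels of the apolipoproteins and of the lists above was not tested.

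Finally, the genes most like each member over the 12 libraries were listed by Pearson correlation of log2(FPKM + 1), a description over libraries that share their groups. Apoc3 was most like Gpx3, the plasma glutathione peroxidase (r = 0.957), and Apoc3 had r = 0.931 with Apoa4. Apoa4 was most like Apoc3 (0.931), the glycine cleavage gene Gldc (0.914) and Dbi, an acyl-CoA binding protein (0.908). Apoe was most like Stra6, a retinol transporter (0.973), Rassf7 (0.962) and Gm31091 (0.952). Apom was most like Perm1 (0.984), Dram2 (0.982) and Fam120aos (0.981), Apob like Dio3os (0.880), Casz1 (0.866) and Taf1 (0.850), and Apoh like Rabepk (0.917), Smurf2 (0.886) and Manf (0.862). Between members, r was 0.763 for Apoc3 with Apoe, 0.602 for Apoa4 with Apoe, and 0.0170 for Apoa4 with Apom.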

How the data were processed

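The deposited table holds FPKM values per gene for 12 libraries; the submitters' processing notes name HTSeq, DESeq2 and the mm10 build, with no role; how FPKM was computed, the strand setting and the annotation are not stated in the sources used here. Per the labels' protocols, RNA came from kidney tissue. Without a stated strand setting, reads of antisense partners cannot be told apart. Values of all 25553 genes were whole multiples of 1 read (tolerance 1e-06), which gave 33096854 to 35707662 reads per library, and Apod had at most 41.

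Values were tested as log2(FPKM + 1), which understates changes of low genes, with limma 3.58.1 in R 4.3.3: a fit of 4 group means over 12 libraries with a mean-variance trend, on the 12357 genes reaching FPKM 1 in 3 or more libraries. P-values were adjusted by Benjamini-Hochberg over all tested genes and called under 0.05. The fit was run on simulated data for the mean injury effect alone. Each simulated gene had the same spread in all 4 groups, so the simulation does not cover groups of unequal spread. The members and the gene lists were chosen with earlier results of these data known. Members were tested in the mean injury effect alone. Besides the 7 members, named genes are, per list and in preconditioned against normoxic RIRI and in normoxic RIRI against normoxic sham, up to 3 called genes with the smallest adjusted p and a mean FPKM of 1 or more in the higher group; the other apolipoproteins; genes within 50 kb of a member; and the 3 genes most correlated with each member. Some genes that this rule names are not reported here. Symbols were matched to RefSeq (24328 of 25553). Replicate numbers did not pair libraries: of 18 same-numbered pairs, 4 had a correlation of deviations above 0.1 (range -0.25 to 0.17). Alternatives were leaving out each library, fits of the compared groups alone, voom on the recovered reads, a replicate block, no trend, quantile normalization, median-ratio rescaling, other filters (FPKM 5 or none) and a pseudocount of 0.1.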

Additional observations from a re-analysis of the deposited data

Results flagged for a closer look

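The injury effect differed between preconditioned and normoxic mice, by the test of the difference itself, for 14 of 28 named genes that are not members; 23.9% of all tested genes passed the same test. Most of these genes were named for small adjusted p in comparisons that share the normoxic RIRI libraries with this one, so the 2 shares cannot be compared. Differences are the log2 injury effect in preconditioned minus that in normoxic mice, and all adjusted p-values are from limma. The effect was more positive in preconditioned mice for 10 genes: Hnf4a (1.61, adjusted p = 0.000866), Mlxipl (1.20, adjusted p = 0.00280), Tm6sf2 (1.08, adjusted p = 0.00451), Cideb (0.95, adjusted p = 0.00148), Cubn (0.76, adjusted p = 0.00605), Lrp2 (0.67, adjusted p = 0.00623), Dgat2 (0.53, adjusted p = 0.00846), Ppargc1a (0.49, adjusted p = 0.0329), Lrpap1 (0.46, adjusted p = 0.0285) and P4hb (0.39, adjusted p = 0.00729). It was more negative for 4 genes: Sphk1 (-2.34, adjusted p = 0.00295), Saa3 (-2.31, adjusted p = 0.00760), S1pr1 (-0.94, adjusted p = 0.0254) and Lsr (-0.38, adjusted p = 0.0353). For Tm6sf2 the injury effect was 0.67 in preconditioned and -0.40 in normoxic mice. The calls of Lrpap1, Lsr, Ppargc1a and S1pr1 were lost under some alternatives, with highest adjusted p of 0.0715, 0.0847, 0.0760 and 0.0703, including without several of the sham libraries; that of Saa3 was lost at a pseudocount of 0.1 and with voom (highest adjusted p 0.265). Groups of 3 libraries are too small for a test of outlying samples.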

How the results depend on the processing

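The mean injury effects of Apom and Apoe kept their direction and their call under all alternatives run, with adjusted p of 0.00236 to 0.0298 for Apoe over the settings that keep all 12 libraries. Apob at 0.25 passed with a filter at FPKM 5 (limma, adjusted p = 0.0485), as did 0.26 with voom (0.0435), while it was 0.13 (0.3003) with median-ratio rescaling and 0.12 (0.376) with quantile normalization, and leaving out each library gave 0.19 to 0.32; Apoa4 ranged from 0.20 to 0.65 in the same way. Over the 6 members, 114 of 120 alternative values kept their side of the threshold and 6 passed it newly. Of 624 described values 9 moved by more than the spread between libraries, all of Apoa4 or Apoc3 on leaving out preconditioned RIRI replicate 1 or 2. With a replicate block, the effect of Apoe was -0.39 (limma, adjusted p = 0.0138) and that of Apob 0.25 (0.0641), and no call of a member changed; same-numbered libraries shared only a number. Genes called in preconditioned RIRI against normoxic RIRI fell to 3373 in a fit of those groups alone, against 5203. Between the sham groups 52 genes were called, against 31 at a pseudocount of 0.1, 303 in a fit of those groups alone and 23 to 80 on leaving out each library (27, 23 and 23 without normoxic sham replicates 1, 2 and 3, 31 and 30 without preconditioned sham replicates 1 and 3, 80 without preconditioned RIRI replicate 2). Median-ratio rescaling moved the all-gene median of the mean injury effect to 0.00, against 0.10, and the share of higher calls to 48.2%, against 58.7%, between the RIRI groups, to 49.4%, against 63.0%, for RIRI in preconditioned mice, to 49.9%, against 58.1%, for RIRI in normoxic mice and to 23.9%, against 44.2%, between the sham groups. Of 61 calls of named list genes, 49 held under all alternatives and none turned sign.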
